A study of Mus musculus with 5 samples.

Results

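Elastic fibres give tissues their recoil. They consist of a core of cross-linked elastin, the product of Eln, laid down on a scaffold of microfibrils whose backbone is fibrillin. In most tissues elastin is made in a short window around birth and then lasts for much of life, and it is made by fibroblast-like cells and by the smooth muscle cells of vessel walls. The temporomandibular joint (TMJ) disc, the pad of fibrocartilage that cushions the jaw joint, holds elastic fibres in its bands and attachments.

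The 10 genes described here were chosen by symbol from the 27998 genes listed in the count files. Eln encodes the elastin core. Fbn1 and Fbn2 encode the fibrillins, the backbone of microfibrils. Mfap2 and Mfap5 encode small glycoproteins that bind fibrillin, and Mfap4 encodes a fibrinogen-domain glycoprotein that binds elastin and fibrillin. Fbln5 encodes a fibulin needed for elastin to assemble on microfibrils, and Fbln1 encodes a fibulin found in the elastin core and in basement membranes. Emilin1 encodes a glycoprotein at the interface of elastin and microfibrils, and Ltbp4 encodes a latent TGF-beta binding protein that also works in elastic fibre assembly. All 10 had UMIs in every library.

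Single-cell libraries were made with the 10x Genomics 3′ assay from discs of wild-type C57BL/6 mice that were untreated at 3 d, 3 w, 16 w or 78 w, and from discs whose anterior band was pinched with needles at 5 weeks of age and collected at 7 weeks, 2 weeks after the injury. There was 1 library per condition, so no test was possible, and no difference between libraries has a replicate check. The 3 d library was 1 suspension from pups of both sexes and the other normal libraries were from males, so sex cannot be told apart from age at 3 d. No uninjured library of 7 weeks was analysed here, so injury cannot be told apart from age in the injured library. The labels give the injured mice as wild type and the anterior band as pinched, whereas the study's methods describe an injury model in Myh11-CreER reporter mice with the band punctured, and which holds for this library is not given in the sources used here. The deposited data of the 78 w library are named for 16 months, and the age in its label was used.

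The 51688 cells kept held between 31585993 and 125386677 UMIs per library, with a median per cell of 3299 UMIs in the injured library and between 7721 and 12496 in the others. A UMI (unique molecular identifier) stands for 1 captured transcript, counted at its 3′ end, so levels do not scale with gene length. Levels are given as CPM, a gene's UMIs added up across 1 class of 1 library, per 1e6 UMIs of the same cells. Intervals in brackets are exact 95% intervals that cover counting error only. Between 19 and 39 cell barcodes were shared by each pair of libraries, at most 0.415% of the smaller library.

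Cells were clustered without the elastic fibre genes and Pi16, and were named "-like" from marker genes. Clusters 1, 2 and 3 make up the stromal cells, with 9888 cells at 3 d, 7898 at 3 w, 7674 at 16 w, 8359 at 78 w and 6830 in the injured library. None of their 10 leading genes is a listed general stromal marker. Cluster 1 was led by genes such as Cytl1, Chad and Col2a1, cluster 2 by genes such as Coch, Kera and Tnmd, and cluster 3 by genes such as Pi16, Clec3b and C3, with Mfap5 and Mfap4 among them although neither was used to cluster, and the share of cluster 3 among stromal cells was 37.1% at 3 d and between 11.5% and 16.2% in the other libraries. Values are therefore also given by cluster. Mural cells, which wrap vessels, numbered 345, 270, 241, 276 and 107 in the same order, and all 10 listed mural markers were detected in them in every library. Pi16-positive stromal cells are those with at least 1 UMI of Pi16, a marker of adventitial-type fibroblasts, and numbered 1925, 222, 289, 766 and 85.

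RNA from broken cells is caught with every cell in this assay, and its level was read in macrophage-like cells, which are not known as makers of elastic fibres. At 3 d the level of each of the 10 genes in these cells was between 0.201 and 0.309 times that in stromal cells. Eln stood at 523 CPM in them at 3 d, 27.5 CPM at 3 w, 3.88 CPM at 16 w, 1.02 CPM at 78 w and 28.4 CPM in the injured library. A level at or below that of the macrophage-like cells of the same library is read here as background. This reading rests on that class alone. Erythroid-like cells at 3 d held less, with Eln at 140 CPM, Fbn2 at 24.9 CPM and Mfap4 at 59.3 CPM. Their median depth was 4832 UMIs beside 10278 in macrophage-like cells. Doublets were kept, and their part in the macrophage-like level was not tested.

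The 10 genes lie on 9 chromosomes. By GENCODE M21 on GRCm38, Eln is at chr5:134702593-134747323 on the minus strand, Mfap5 at chr6:122505845-122529290 on the plus strand and Ltbp4 at chr7:27305136-27337692 on the minus strand. Emilin1 shares its chromosome with Eln and is at chr5:30913402-30921277 on the plus strand. Fbn1 is at chr2:125300594-125507993 and Fbln5 at chr12:101746565-101819055, both on the minus strand. Mfap2 at chr4:141010418-141015984, Mfap4 at chr11:61485431-61488900 and Fbln1 at chr15:85205949-85286535 are on the plus strand. None of the 10 genes overlaps another annotated gene on its own strand. Eln, Fbn1, Fbn2 and Mfap4 each overlap a gene of the files on the opposite strand (Gm30003, Gm9913, Gm26507 and Mapk7), and Cell Ranger counts reads of the sense strand. Ltbp4 has a second identifier in the files, ENSMUSG00000108715, which held 0 UMIs in all libraries, so ENSMUSG00000040488 was used.

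In the pooled stromal cells the summed level of the elastic fibre genes was highest at 3 d, when Eln led it. Eln stood at 2600 CPM at 3 d (2589 to 2611), 127 CPM at 3 w, 14.5 CPM at 16 w and 9.18 CPM at 78 w. It was thus 20.5-fold lower at 3 w than at 3 d, a further 8.74-fold lower at 16 w and 1.58-fold lower again at 78 w, and 283-fold (264.5 to 303.4) lower at 78 w than at 3 d. The share of stromal cells with an Eln UMI, after each cell was thinned to 1000 UMIs to even out depth, fell in the same order over the normal libraries, with 49.4%, 7.88%, 1.48% and 0.842%. In macrophage-like cells thinned alike it was 17.6%, 2.62%, 0.935% and 0%, the last in 285 cells, which allows a share of up to 1.29%.

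**Figure D1:**
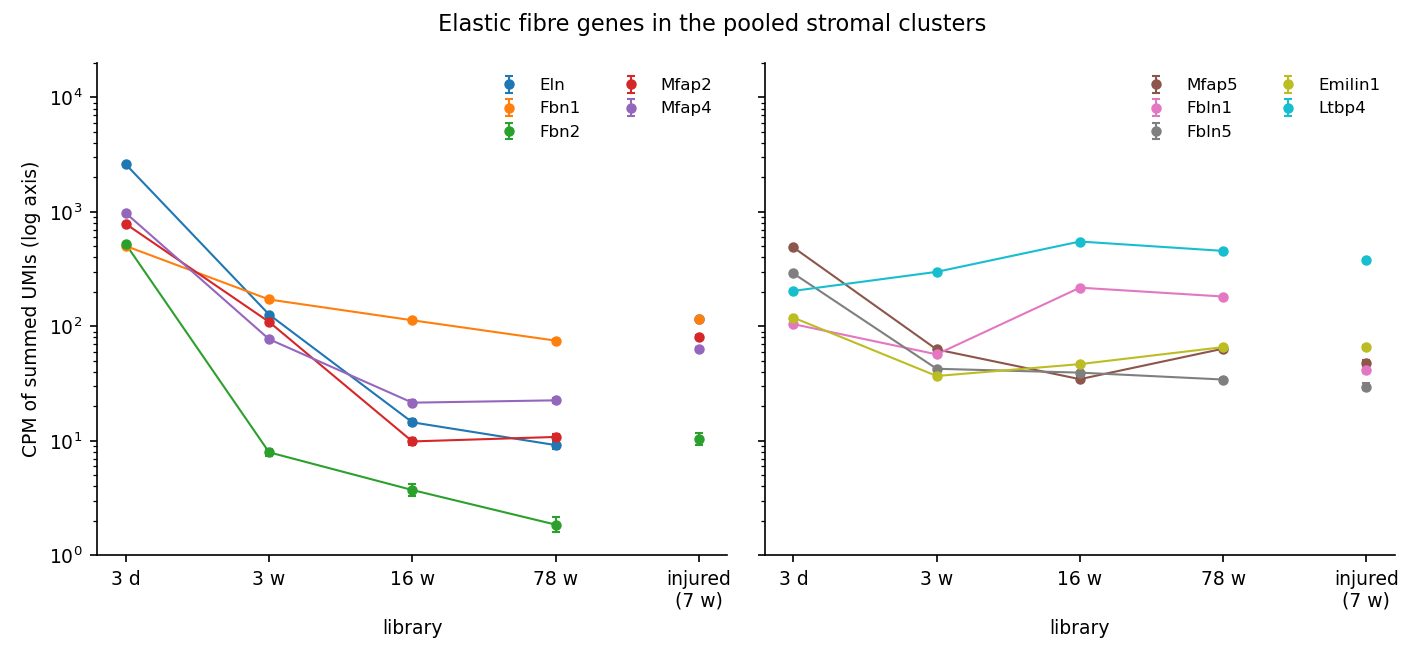
Level of each elastic fibre gene in the pooled stromal clusters, in CPM of summed UMIs on a log axis, for the 5 libraries. Points are single libraries with exact 95% counting intervals, lines join the 4 normal libraries, and the injured library stands alone; Eln drops from 2600 to 9.18 CPM from 3 d to 78 w while Ltbp4 rises from 204 to 457 CPM.

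The fibrillins parted after birth. Fbn2, the fibrillin best known from development, stood at 522 CPM at 3 d, 7.94 CPM at 3 w, 3.72 CPM at 16 w and 1.86 CPM at 78 w. Fbn1 stood at 504 CPM at 3 d, 172 CPM at 3 w, 113 CPM at 16 w and 75.1 CPM at 78 w. The 2 genes were thus near each other at 3 d, whereas Fbn2 was 281-fold (241.8 to 329.4) lower at 78 w, a fold that counting error does not separate from that of Eln, and Fbn1 was 6.71-fold lower. Between 3 d and 3 w alone, Fbn2 fell 65.7-fold and Fbn1 2.93-fold. At 78 w Fbn2 in macrophage-like cells was 0.184 times (0.00462 to 1.04) the stromal level, on 1 UMI. Counting error thus does not separate its stromal level at 78 w from background.

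Of the small microfibril proteins, Mfap2 and Mfap4 reached their low level over the pooled stromal cells by 16 w, whereas Mfap5 was lowest at 16 w. Mfap2 stood at 785 CPM at 3 d, 109 CPM at 3 w, 9.89 CPM at 16 w and 10.8 CPM at 78 w. Mfap4 stood at 976 CPM, 77.3 CPM, 21.6 CPM and 22.6 CPM at the same ages. Over the pooled cells neither differed between 16 w and 78 w beyond counting error, with a ratio of 78 w to 16 w of 1.09 (0.995 to 1.20) for Mfap2 and 1.05 (0.983 to 1.12) for Mfap4. The clusters differed, with Mfap2 ratios of 0.426 (0.332 to 0.542) in cluster 1, 1.35 (1.14 to 1.60) in cluster 2 and 1.25 (1.09 to 1.44) in cluster 3. Mfap4 went from 2.96 to 1.025 CPM in cluster 1, from 50.9 to 63.8 CPM in cluster 2 and from 94.8 to 99.5 CPM in cluster 3. At 78 w Mfap2 in cluster 1, with 102 of 66327699 UMIs, was below macrophage-like cells, with 9 of 2934991, and is read as background. Mfap4 in cluster 1 was then within counting error of their 1.022 CPM (0.211 to 2.99). Mfap5 stood at 489.7 CPM at 3 d, 62.9 CPM at 3 w, 34.6 CPM at 16 w and 63.9 CPM at 78 w. Over the pooled cells its level was 1.85-fold higher at 78 w than at 16 w. By cluster this ratio was 1.01 (0.775 to 1.32) in cluster 1, 2.66 in cluster 2 and 1.43 in cluster 3. It was 1.01 (0.952 to 1.08) in Pi16-positive and 1.44 in other stromal cells. Pi16-positive cells were 3.77% of stromal cells at 16 w and 9.16% at 78 w. The part of this difference in the pooled ratio was not tested.

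The genes for proteins that link elastin to microfibrils and to cells took different courses. Fbln5 stood at 290.2 CPM at 3 d, 42.6 CPM at 3 w, 39.5 CPM at 16 w and 34.3 CPM at 78 w, so that nearly all of its fall lay before 3 w. Emilin1 stood at 119 CPM at 3 d, 36.9 CPM at 3 w, 46.8 CPM at 16 w and 65.9 CPM at 78 w, lowest at 3 w. Fbln1 stood at 105 CPM at 3 d, 57.0 CPM at 3 w, 218 CPM at 16 w and 182 CPM at 78 w. The lower level at 3 w than at 3 d was found in the pooled cells and in cluster 1 (ratio 0.343) and turned within the others, with ratios of 1.40 (1.32 to 1.49) in cluster 2 and 1.61 (1.54 to 1.68) in cluster 3, and of 2.32 (2.18 to 2.47) in Pi16-positive cells. It was the only 1 of the 10 genes at least 2-fold higher at 16 w than at 3 w, by 3.82-fold (3.72 to 3.94).

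Ltbp4 was the only 1 of the 10 genes whose level over the pooled stromal cells was higher at 3 w than at 3 d. Within clusters Fbln1 was higher too in clusters 2 and 3, as given above, and Fbn1 in cluster 1, at 1.20 times (1.14 to 1.26). It stood at 204 CPM at 3 d, 299.5 CPM at 3 w, 551 CPM at 16 w and 457 CPM at 78 w, 2.24-fold (2.20 to 2.28) higher at 78 w than at 3 d. The share of stromal cells with an Ltbp4 UMI after thinning was 19.2%, 25.1%, 40.5% and 33.5% in that order, against 5.03%, 6.11%, 7.48% and 3.86% in macrophage-like cells. The summed level of the 10 genes in stromal cells was 6594 CPM at 3 d and then stayed between 923 and 1053 CPM at 3 w, 16 w and 78 w. Eln made up 39.4% of that sum at 3 d and 0.995% at 78 w, and Ltbp4 made up 3.1%, 30.2%, 52.4% and 49.5% over the 4 ages.

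Read against all genes with at least 100 UMIs in the higher library, 8 of the 10 genes were at least 2-fold lower at 3 w than at 3 d (all but Fbln1 and Ltbp4), where 17.6% of 12797 genes were, and 0 were at least 2-fold higher, where 17.0% were. From 3 w to 16 w, 4 were lower (Eln, Fbn2, Mfap2 and Mfap4; 5.76% of genes) and 1 was higher (Fbln1; 5.23%). From 16 w to 78 w, 1 was lower, Fbn2 at a ratio of 0.499 (0.410 to 0.604), where 1.29% of genes were, and 0 were higher, where 2.04% were. That call of Fbn2 rests on 168 UMIs at 78 w and is at the threshold. Over the whole span, 7 were at least 2-fold lower at 78 w than at 3 d (19.7% of 12736 genes) and 1, Ltbp4, was higher (14.9%), and the median ratio of the 10 genes was 0.124 against 0.915 for all genes tested.

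The same split held within each stromal cluster. At 78 w, 8 of the 10 genes were at least 2-fold lower than at 3 d in cluster 1 (14.8% of genes), in cluster 2 (15%) and in cluster 3 (17.6%), namely the same 8 that were lower at 3 w in the pooled cells. Fbln1 and Ltbp4 were at least 2-fold higher in cluster 2 (13.6% of genes) and in cluster 3 (12.8%), and 0 were in cluster 1 (19.8%), where Ltbp4 was 1.57-fold and Fbln1 1.68-fold higher. Fbn2 fell more than Eln within each cluster, by 143-fold in cluster 1, 289-fold in cluster 2 and 1113-fold (565 to 2579) in cluster 3, the last on 8 UMIs at 78 w, and in cluster 1 Mfap2 and Mfap4 fell 381-fold and 380-fold. The falls of Mfap2 and Mfap4 in cluster 1 end at or near the level of macrophage-like cells. Fbn2 at 78 w stood at 2.17 CPM (1.83 to 2.56) in cluster 1, 1.32 CPM (0.752 to 2.14) in cluster 2 and 0.662 CPM (0.286 to 1.30) in cluster 3. In macrophage-like cells it stood at 0.341 CPM (0.00863 to 1.90), on 1 UMI. These intervals overlap, so the ends of its falls are not clearly separated from background. Eln was 64.7-fold lower in cluster 1, 78.5-fold in cluster 2 and 173-fold in cluster 3, smaller folds than over the pooled cells, in which the share of cluster 3 also differed between the ages. At 3 d, Eln in cluster 1 and Mfap5 in clusters 1 and 2 were below the level of macrophage-like cells, so that by that rule these 3 falls start from background. Eln in cluster 1 was still above the 140 CPM of erythroid-like cells at 3 d.

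The clusters differed in level at every age. Eln in cluster 3 stood at 4816 CPM at 3 d, 564 CPM at 3 w, 59.7 CPM at 16 w, 27.9 CPM at 78 w and 344 CPM in the injured library. In cluster 2 it stood at 1168, 98.7, 16.9, 14.9 and 95.4 CPM in the same order, and in cluster 1 at 306, 68.5, 7.37, 4.73 and 64.4 CPM. Cluster 3 was thus highest in each of the 5 libraries, in the order 3, 2, 1. Fbln1 had the same order of clusters, with 822 CPM in cluster 3, 437 CPM in cluster 2 and 70.7 CPM in cluster 1 at 16 w. Emilin1 ran the other way, with 153.5 CPM in cluster 1, 131 CPM in cluster 2 and 96.8 CPM in cluster 3 at 3 d and with 72.2, 59.6 and 37.9 CPM at 78 w.

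**Figure D2:**
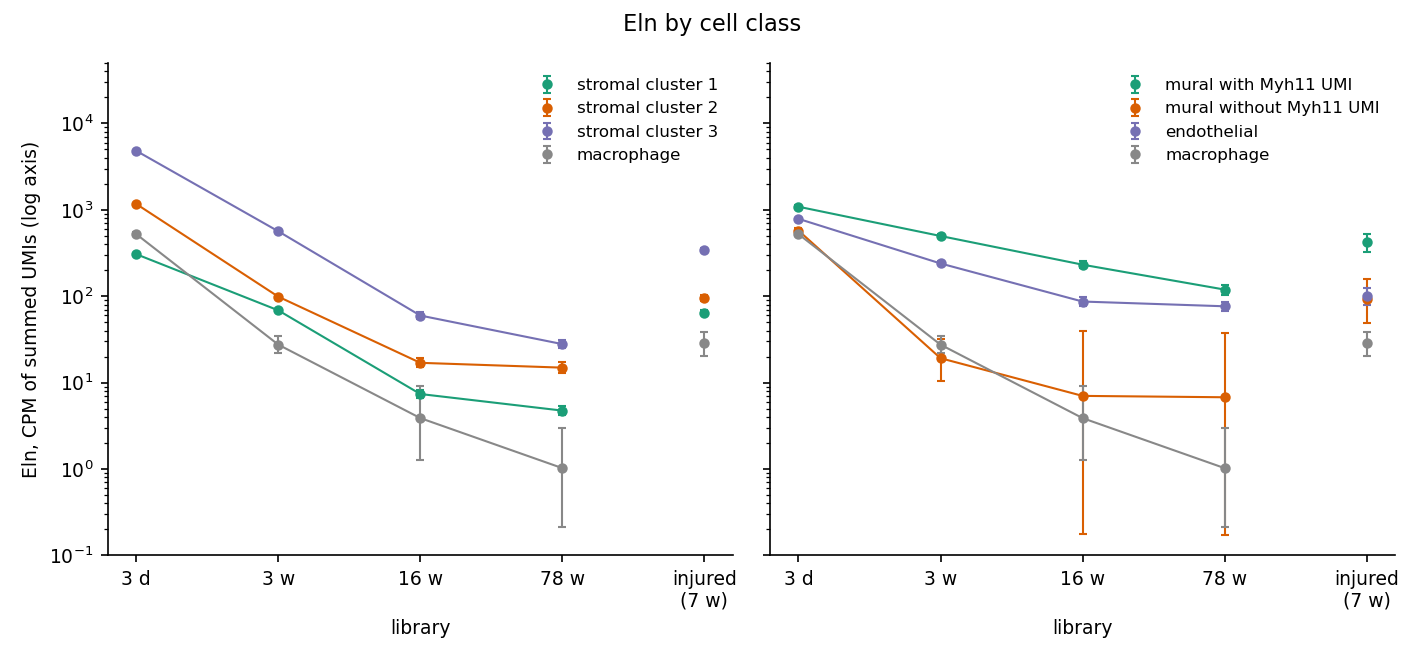
Eln in CPM of summed UMIs on a log axis, by library, in the 3 stromal clusters and macrophage-like cells (left) and in mural cells with and without a Myh11 UMI, endothelial-like cells and macrophage-like cells (right). Points carry exact 95% counting intervals and lines join the normal libraries; at 78 w mural cells with Myh11 stand at 119 CPM and stromal cluster 3 at 27.9 CPM.

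The reference set used here held a RefSeq promoter window on GRCm38.p6 for 6 of the 10 genes. Shown are 3 that flank genes of opposite course: Mfap2 and Fbln5, which were lower from 3 w on, and Ltbp4, which was higher. Each is the stretch 5′ to 3′ on the gene's strand that lies before both the RefSeq start furthest upstream and the GENCODE gene, so that it is intergenic with respect to that gene. Capitals mark matches on either strand to GGGCGG (the GC box), CCAAT (the CCAAT box) and TATAAA (the TATA box), which do not overlap here. The windows are chr4:141010174-141010417 on the plus strand for Mfap2, chr12:101819120-101819369 on the minus strand for Fbln5 and chr7:27337693-27337862 on the minus strand for Ltbp4.
Mfap2: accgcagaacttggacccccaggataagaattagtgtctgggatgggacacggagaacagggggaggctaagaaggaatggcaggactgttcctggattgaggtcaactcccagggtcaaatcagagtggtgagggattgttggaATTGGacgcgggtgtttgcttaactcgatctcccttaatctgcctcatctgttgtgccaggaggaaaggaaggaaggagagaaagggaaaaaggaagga
Fbln5: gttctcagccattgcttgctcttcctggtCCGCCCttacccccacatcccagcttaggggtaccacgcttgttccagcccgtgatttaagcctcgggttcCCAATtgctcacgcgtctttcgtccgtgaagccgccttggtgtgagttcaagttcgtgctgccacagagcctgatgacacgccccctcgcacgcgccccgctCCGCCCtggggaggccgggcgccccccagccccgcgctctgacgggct
Ltbp4: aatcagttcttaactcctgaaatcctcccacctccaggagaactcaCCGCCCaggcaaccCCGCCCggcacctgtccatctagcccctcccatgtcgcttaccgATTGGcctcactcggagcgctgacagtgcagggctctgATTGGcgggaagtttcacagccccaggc

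The Mfap2 stretch of 244 bases held 1 CCAAT match, the Fbln5 stretch of 250 bases held 2 GGGCGG matches and 1 CCAAT match, and the Ltbp4 stretch of 170 bases held 2 of each. Among 32851 RefSeq promoters, 33.4% held CCAAT and 31.9% held GGGCGG in the first 244 bases of their window, and 23.3% and 19.5% did in the first 170 bases. Over all 250 bases the shares were 33.8% and 32.7%. None of the 3 stretches held TATAAA, which 12.2% of promoters held in 244 bases, 12.4% in 250 bases and 8.04% in 170 bases. The G and C content was 51.2% for Mfap2, 65.2% for Fbln5 and 60.6% for Ltbp4, beside medians of 52.0%, 52.4% and 51.2% over all promoters at these lengths.

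In the injured library, 7 w of age, Eln, Mfap2, Mfap4, Fbn1, Mfap5 and Ltbp4 lay between their 3 w and 16 w levels in the pooled stromal cells. How many of all genes lay between in this way was not counted. Eln stood at 115 CPM in stromal cells, 0.910 times (0.875 to 0.945) the 3 w level and 7.95-fold (7.43 to 8.51) above the 16 w level. Mfap2 at 81.1 CPM was 0.741 times the 3 w level and 8.20-fold above 16 w, and Mfap4 at 63.6 CPM was 0.822 times and 2.95-fold. Fbn1 at 115 CPM was at 1.02 times (0.978 to 1.06) the 16 w level, within counting error of it.

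Fbn2, Emilin1, Fbln1 and Fbln5 lay outside the range of 3 w and 16 w. Fbn2 at 10.3 CPM was 1.30-fold (1.14 to 1.49) above 3 w and 2.78-fold above 16 w, and Emilin1 at 66.3 CPM was 1.80-fold above 3 w and 1.42-fold above 16 w. Fbln1 at 41.6 CPM was 0.730 times the 3 w level and 5.24-fold below the 16 w level, and Fbln5 at 29.7 CPM was 0.697 times and 0.753 times. Mfap5 at 48.0 CPM and Ltbp4 at 379 CPM lay between the 3 w and 16 w levels. Macrophage-like cells of the injured library held Mfap5 at 0.947 times (0.725 to 1.22) the stromal level, so counting error does not separate this Mfap5 value from background. The place differed within clusters for Fbn1, Mfap5, Ltbp4, Fbn2 and Fbln1, and how many of all genes did so was not counted. Fbn1 was below both levels in cluster 1 (0.436 times 3 w and 0.711 times 16 w) and above both in cluster 2 (1.09 and 1.98) and cluster 3 (1.13 and 1.12). Mfap5 was below both in cluster 3 (0.452 and 0.781) and above both in cluster 1 (4.23 and 3.60), where its 6.76 CPM lay under the 45.5 CPM of macrophage-like cells. Ltbp4 was below both in cluster 3 (0.863 and 0.464). In cluster 1 Fbn2 at 7.73 CPM and Fbln1 at 17.5 CPM lay between their 3 w and 16 w levels. Against both 3 w and 16 w, 0 of the 10 genes were at least 2-fold higher, where 2.89% of 11846 genes were, and 0 were at least 2-fold lower, where 8.03% were.

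Macrophage-marker levels and depth also differed between these libraries. The median per stromal cell was 3567 UMIs in the injured library, 13232.5 UMIs at 3 w and 9565 UMIs at 16 w. The 7 macrophage markers summed to 53.0 CPM in stromal cells of the injured library and to between 10.2 and 18.0 CPM in those of the others, and all 7 were detected in each library. The sum of the 10 genes in macrophage-like cells was 414 CPM in the injured library, 316 CPM at 3 w and 181 CPM at 16 w. The part of these differences in the injured values was not tested.

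Pi16-positive stromal cells carried more of most elastic fibre genes than other stromal cells. At 3 d they made up 19.5% of stromal cells (18.7 to 20.3), at 3 w 2.81%, at 16 w 3.77%, at 78 w 9.16% and in the injured library 1.24%. After thinning to 1000 UMIs a Pi16 UMI was found in 5.54%, 0.811%, 1.57%, 3.87% and 0.586% of stromal cells. Macrophage-like cells had a Pi16 UMI in 12.5%, 1.28%, 0.877%, 5.07% and 0.786% of cells, at median depths of 10280, 10910, 10030, 9039 and 2222 UMIs beside 8250, 13232.5, 9565, 9793 and 3567 UMIs in stromal cells, so that the class holds cells with background Pi16. The 7 adventitial-type markers, of which Pi16 made the split, were all detected and summed to between 1672 and 5233 CPM in Pi16-positive cells and to between 497 and 1140 CPM in other stromal cells, where Pi16 is 0 by the rule. Pi16 itself held between 384 and 1293 CPM of the sums in Pi16-positive cells. In those cells 7 markers were higher than in macrophage-like cells at 16 w, and 6 in each other library. In other stromal cells 3 to 5 were.

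The sum of the 10 genes in Pi16-positive cells was 11950 CPM at 3 d, 4358 CPM at 3 w, 2788 CPM at 16 w, 2417 CPM at 78 w and 2208 CPM in the injured library. In other stromal cells it was 4864, 894, 977, 761 and 934 CPM in the same order. Every library thus had the higher sum in the Pi16-positive cells. Eln was the leading gene of the sum in Pi16-positive cells at 3 d (47.0%) and at 3 w (22.2%), and Ltbp4 led it in the other 3 libraries with 31.8% to 39.5%.

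Mfap5 separated the Pi16-positive cells most. It stood in them at 1114 CPM at 3 d, 902 CPM at 3 w, 408 CPM at 16 w, 414 CPM at 78 w and 408 CPM in the injured library. In other stromal cells it stood at 288 CPM at 3 d, 38.3 CPM at 3 w, 18.2 CPM at 16 w, 26.1 CPM at 78 w and 43.3 CPM in the injured library. The ratio at 3 d was 3.87 (3.79 to 3.94). It was highest at 3 w with 23.5 (22.4 to 24.7) and at 16 w with 22.5 (20.8 to 24.2), and lower at 78 w with 15.8 (15.01 to 16.7) and in the injured library with 9.42 (7.88 to 11.2). In the injured library the level of other stromal cells was below the 45.5 CPM of macrophage-like cells, so that this ratio is set against background. The lowest level in Pi16-positive cells, 408 CPM, was above the highest in other stromal cells, 288 CPM. How many of all genes are separated in this way was not counted.

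Fbln1 was also higher in every library, with 180.3 CPM in Pi16-positive cells at 3 d, 418 CPM at 3 w, 755 CPM at 16 w, 533 CPM at 78 w and 261 CPM in the injured library. Its ratio to other stromal cells was 2.25 at 3 d, 9.001 at 3 w, 3.89 at 16 w, 3.69 at 78 w and 6.74 (5.40 to 8.32) in the injured library. Mfap5 and Fbln1 were the 2 genes of the 10 that were at least 2-fold higher in the Pi16-positive cells of every library, where 1.18% of 12575 genes were, and 0 were at least 2-fold lower, where 0.0477% were.

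Eln was at least 2-fold higher in the Pi16-positive cells of the 4 normal libraries and just under 2-fold in the injured one. It stood in them at 5617 CPM at 3 d, 966 CPM at 3 w, 86.7 CPM at 16 w, 34.7 CPM at 78 w and 225 CPM in the injured library, with ratios to other stromal cells of 3.46, 9.44, 7.64, 5.39 and 1.97 (1.56 to 2.46). Its fall with age was present on both sides of the split, 162-fold in Pi16-positive and 253-fold in other stromal cells from 3 d to 78 w. Mfap4 ran alongside, with ratios of 1.84, 9.64, 7.09, 7.48 and 4.14.

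For the remaining genes the separation was smaller or changed with age. The ratio of Mfap2 was 1.27 at 3 d, 2.73 at 3 w, 4.11 at 16 w, 5.84 at 78 w and 1.66 in the injured library. Fbn1 ranged from 1.16 in the injured library, with an interval of 0.853 to 1.54 that holds 1, to 3.44 at 78 w, and Fbln5 from 1.12 in the injured library, likewise within counting error of 1, to 2.58 at 78 w. Ltbp4 ranged from 1.16 at 3 d to 2.65 at 3 w, and stood in Pi16-positive cells at 227 CPM at 3 d, 758 CPM at 3 w, 1023 CPM at 16 w, 955 CPM at 78 w and 702 CPM in the injured library. Emilin1 was the exception with ratios from 0.666 to 0.791, and its interval held 1 only in the injured library. Fbn2 was 1.77-fold higher at 3 d but 0.226 times (0.0608 to 0.589) at 78 w, the latter on 4 UMIs in Pi16-positive cells.

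**Figure D3:**
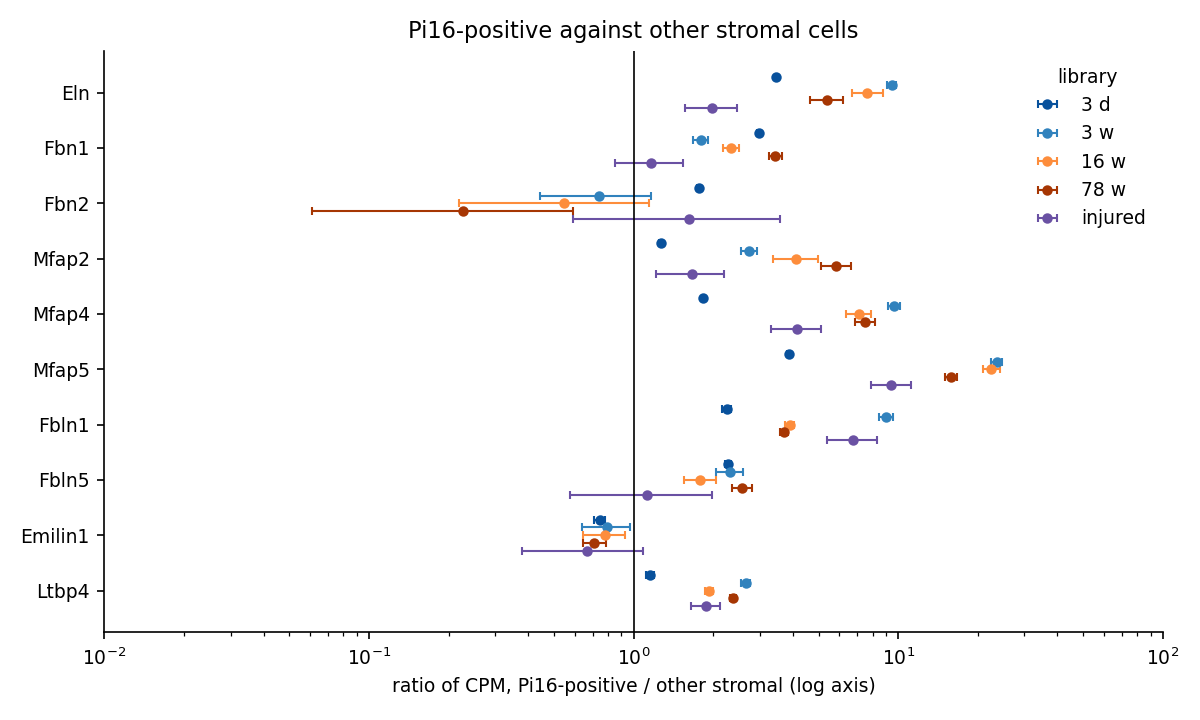
Ratio of CPM in Pi16-positive to other stromal cells for each elastic fibre gene on a log axis, 1 point per library with its exact 95% counting interval and a vertical line at 1. Mfap5 lies furthest right, between 3.87 and 23.5, and Emilin1 lies left of the line in all 5 libraries.

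Most Pi16-positive cells, from 68.2% to 86.0% per library, were in stromal cluster 3, so the split partly sets cluster 3 against the others. With the split made within cluster 3, an alternative chosen after seeing the data, Mfap5 had ratios of 1.63 at 3 d, 2.77 at 3 w, 3.48 at 16 w, 2.31 at 78 w and 2.54 in the injured library. Fbln1 then had ratios of 1.39, 2.27, 1.51, 1.54 and 3.93, and Eln 1.82, 2.82, 3.29, 2.16 and 0.631. None of the 10 genes was then at least 2-fold higher in every library, and the share of all genes under this split is not given.

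Mural cells were above the pooled stromal cells in Eln in every library but that of 3 d. Eln stood in mural cells at 795 CPM at 3 d, 369.5 CPM at 3 w, 217 CPM at 16 w, 111 CPM at 78 w and 266 CPM in the injured library, a 7.17-fold (6.25 to 8.27) fall from 3 d to 78 w beside 283-fold in stromal cells. The ratio of mural to stromal cells at 3 d was 0.306 (0.294 to 0.318). At 3 w it was 2.91 (2.73 to 3.104), at 16 w 14.9 (13.4 to 16.6) and at 78 w 12.1 (10.4 to 14.01), while the injured library had 2.31 (1.83 to 2.87). Against Pi16-positive stromal cells alone, mural cells were lower at 3 d (0.142) and at 3 w (0.383), higher at 16 w (2.50) and 78 w (3.20), and within counting error in the injured library at 1.18 (0.859 to 1.63). Against stromal cluster 3 they were lower in level at 3 w and in the injured library as well as at 3 d. At 3 d the mural level was 1.52 times that of macrophage-like cells, and at 16 w 55.9 times (23.8 to 173).

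Within mural cells Eln went with Myh11, the smooth muscle myosin gene that marks contractile cells. A Myh11 UMI was found in 37.7% of mural cells at 3 d, 71.1% at 3 w, 89.6% at 16 w, 89.5% at 78 w and 45.8% in the injured library, and after thinning in 12.5%, 35.6%, 61.4%, 68.5% and 37.5%, beside at most 0.935% of macrophage-like cells. Eln in mural cells with Myh11 stood at 1085 CPM at 3 d, 497 CPM at 3 w, 231.5 CPM at 16 w, 119 CPM at 78 w and 419 CPM in the injured library. In mural cells without it, Eln stood at 574, 19.1, 7.01, 6.76 and 91.6 CPM in the same order. At 3 d this level (539.7 to 610.9) was somewhat above the 523 CPM (500.5 to 545.8) of macrophage-like cells. At 3 w it was below their 27.5 CPM and is read as background. At 16 w and 78 w it rests on 1 UMI each in 25 and 29 cells and is too thinly counted to place.

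Mfap5 was the other gene that was higher in mural than in pooled stromal cells from 3 w on. It stood in mural cells at 126 CPM at 3 d, 148 CPM at 3 w, 240.2 CPM at 16 w, 187.5 CPM at 78 w and 82.1 CPM in the injured library. Over all mural cells the level at 3 d was below the 132 CPM of macrophage-like cells and is read as background, although mural cells with a Myh11 UMI were above it. At 16 w macrophage-like cells had 0 UMIs of Mfap5. The ratio to stromal cells was 0.258 at 3 d, 2.35 at 3 w, 6.94 (6.31 to 7.63) at 16 w, 2.94 at 78 w and 1.71 (1.10 to 2.53) in the injured library. Mural levels of Mfap5 stayed below those of Pi16-positive stromal cells in every library.

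The other genes were near or below the stromal level in mural cells. Fbln1 was at least 2-fold lower in every library, with ratios from 0.141 at 3 w to 0.374 at 3 d, the only such gene of the 10, where 1.84% of 11646 genes were. Its ratio in the injured library, 0.237 (0.0488 to 0.694), rests on 3 mural UMIs, and its mural level at 3 w (8.04 CPM) and in the injured library (9.85 CPM) was below that of macrophage-like cells. In the other direction, 0 of the 10 genes were at least 2-fold higher in every library, where 6.71% were. Mfap4 had 0 UMIs in mural cells at 78 w, which allows at most 1.85 CPM, against 22.6 CPM in stromal cells. Fbn1 was near the stromal level, with ratios from 0.716 at 3 d to 1.12 at 3 w, and stood at 360.5, 193, 104, 61.2 and 85.4 CPM in mural cells. Ltbp4 had ratios from 0.371 at 16 w to 0.764 at 3 w, and stood at 134, 229, 204, 188.5 and 253 CPM, each above the 54.5, 109, 96.2, 91.7 and 151 CPM of macrophage-like cells.

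Eln led their sum at 3 d (36.2%), at 3 w (36.1%) and in the injured library (31.6%, on 81 UMIs beside 77 of Ltbp4), Mfap5 led it at 16 w (26.9%), and Ltbp4 (28.4%) and Mfap5 (28.2%) were near each other at 78 w. The sum itself was 2196 CPM at 3 d, 1024 CPM at 3 w, 893 CPM at 16 w, 665 CPM at 78 w and 841 CPM in the injured library.

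**Figure D4:**
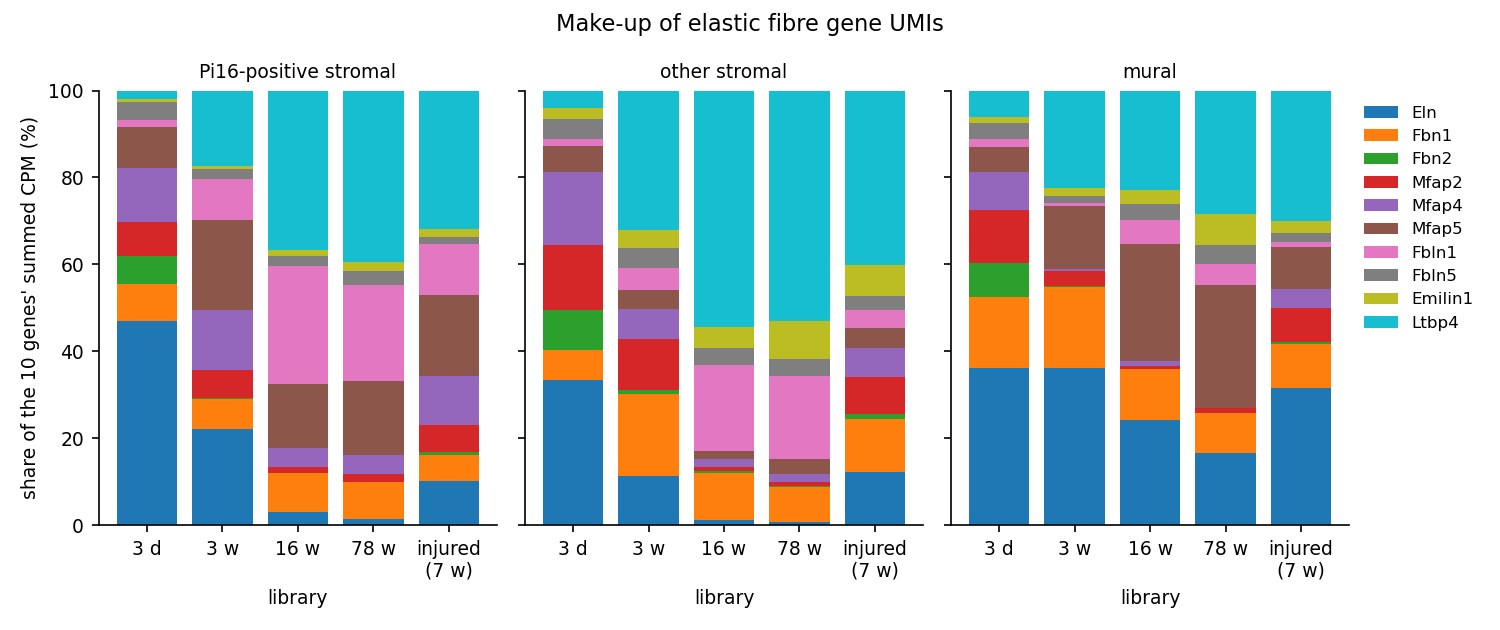
Share of each elastic fibre gene in the summed CPM of the 10 genes, in percent, by library in Pi16-positive stromal, other stromal and mural cells. Eln is the largest part at 3 d in all 3 classes, Ltbp4 exceeds 50% in other stromal cells at 16 w and 78 w, and mural cells keep 16.7% Eln at 78 w.

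**Figure D5:**
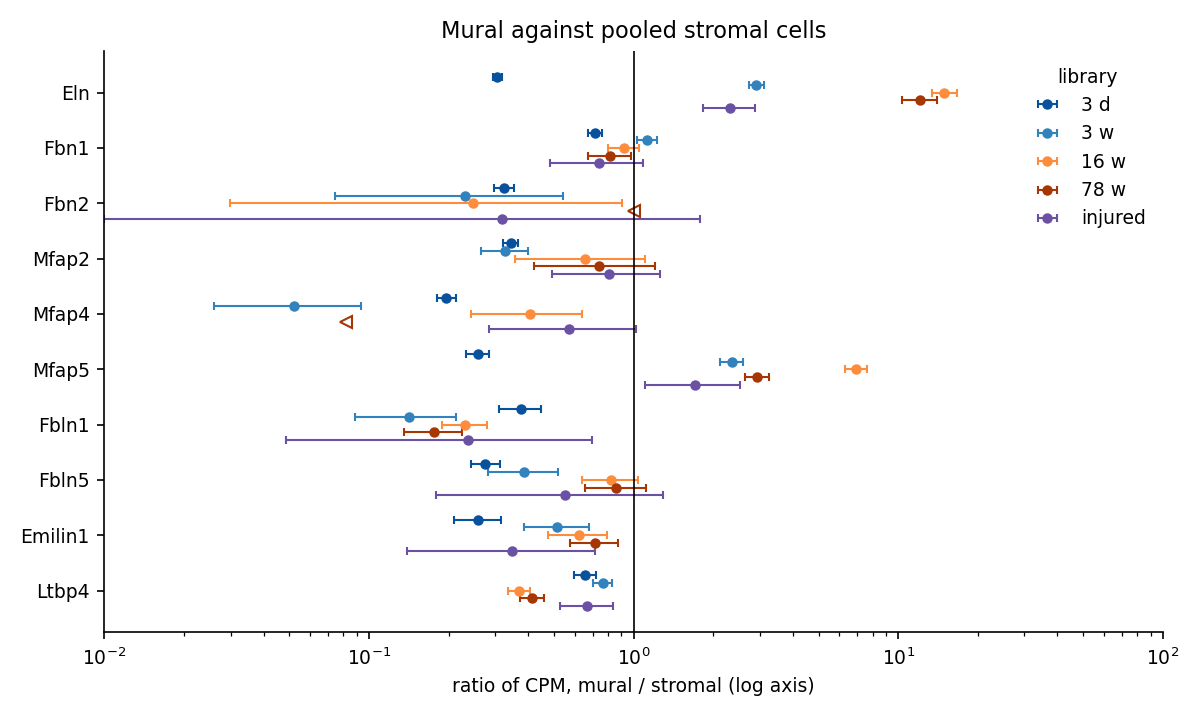
Ratio of CPM in mural to pooled stromal cells for each elastic fibre gene on a log axis, 1 point per library with its exact 95% counting interval and a vertical line at 1. Open triangles mark the upper bound where mural cells had 0 UMIs and the lower bar of Fbn2 in the injured library runs off the axis; Eln and Mfap5 lie left of the line at 3 d and right of it in the other 4 libraries.

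Markers of other cell types were present in mural cells. The 7 macrophage markers summed to between 9.68 and 19.7 CPM, with 3 of them detected in the injured library and 5 to 7 in the others, and all 6 endothelial markers were detected, summing to 184 CPM at 3 w, 177 CPM in the injured library and between 11.0 and 45.3 CPM in the others. The 7 skeletal muscle markers summed to at most 27.3 CPM, with all 7 at 0 in the injured library. The 7 general stromal markers summed to between 8033 and 16640 CPM in mural cells, against 33750 to 60730 CPM in stromal cells. Erythroid genes summed to 918 CPM in stromal and to 804 CPM in mural cells at 3 d, and to at most 115 CPM in either class in the other libraries. The part of these cells in the mural and 3 d values was not tested.

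Other genes of elastic fibre biology were read from a list of 56. In stromal cells 50 could be compared between 78 w and 3 d, and 18 were at least 2-fold lower, 8 were at least 2-fold higher and 24 lay between, where 19.7% of all genes tested were lower and 14.9% higher. Of these, 15 of 16 genes for other microfibril-associated proteins could be compared, and 8 were lower and 1 higher, with a median ratio of 0.403. The 5 cross-linking enzymes, which join elastin chains, split into 2 lower, 1 higher and 2 between, with a median of 1.35. Of 6 genes for proteins that bind elastin or microfibrils, 3 were higher and 1 lower, with a median of 2.49.

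By the largest ratios, the genes lowest at 78 w were Thsd4, an ADAMTS-like gene for a protein that promotes fibrillin-1 microfibrils, at 16.9 CPM at 3 d and 0.960 CPM at 78 w, Adamts17 at 3.25 and 0.210 CPM, and the cross-linking enzyme Loxl1 at 268 and 20.7 CPM. The genes highest at 78 w were Fbln7, a fibulin, at 10.7 and 135 CPM, Dcn, the small proteoglycan decorin, at 3225 and 26270 CPM, and the cross-linking enzyme Loxl4 at 0.404 and 3.102 CPM. Loxl1 was thus 12.9-fold (12.4 to 13.6) lower at 78 w, and Fbln7 12.6-fold (11.8 to 13.5) higher. From 16 w to 78 w, 44 of 47 list genes lay within 2-fold, 3 were higher and 0 were lower, where 2.04% and 1.29% of all genes tested were.

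In the injured library, of 48 list genes compared with 3 w, 5 were at least 2-fold higher and 6 lower, where 4.92% and 17.6% of all genes tested were. Of 47 compared with 16 w, 4 were higher and 7 lower, where 5.66% and 14.5% were. Among 11 listed proteases that can cut elastin, 7 could be compared with 3 w, and 1 was higher and 1 lower, with a median ratio of 0.957. Between the normal libraries, 2 of 6 were lower at 16 w than at 3 w and 0 were higher. Against 16 w, 7 could be compared with the injured library, and 3 were higher and 0 lower. These 3, named after their values were seen, were Mmp2, Ctsk and Ctss, and Ctss is among the 10 leading genes of the macrophage-like cells, whose markers were also higher in stromal cells of that library. In Pi16-positive cells 5 of 50 list genes were at least 2-fold higher than in other stromal cells in every library, namely Efemp1, Emilin2, Adamtsl1, Adamtsl5 and Itgb3, and 0 were lower, where 1.18% and 0.0477% of all genes tested were. In mural cells 2 of 48, Itgb1 and Itga8, both integrin chains, were at least 2-fold higher than in stromal cells in every library, and 7 were lower, among them Lox, where 6.71% and 1.84% of all genes tested were.

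Genes whose pattern was most like that of Eln were sought by Pearson correlation of log2(CPM + 5) over 15 values, which are other stromal, Pi16-positive stromal and mural cells in 5 libraries. Cells of a class share their library and its background RNA, so the 15 values are not independent and the correlation is a description. Of 14357 genes, the nearest were Podxl2 (r = 0.934), Postn (0.910), Gpr173 (0.893), C1qtnf6 (0.889) and Nid2 (0.889). Postn, the gene for the matrix protein periostin, stood at 2273 CPM in other stromal cells at 3 d and at 12.5 CPM at 78 w, and at 736 and 106 CPM in mural cells. Within the elastic fibre genes the correlation with Eln was 0.825 for Mfap2, at rank 50, 0.757 for Fbn1, 0.747 for Fbn2, 0.670 for Mfap5, 0.648 for Mfap4 and 0.624 for Fbln5, whereas it was 0.125 for Emilin1, -0.161 for Fbln1 and -0.432 for Ltbp4.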

How the data were processed

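TMJ discs were digested with Pronase and Collagenase P and sequenced with 10x Genomics 3′ chemistry. The authors deposited raw whole-number UMI counts per gene and cell barcode for barcodes already called as cells, with no normalization. The submitters' processing notes name Cell Ranger 3.1 and mm10, and the headers of the deposited counts name Cell Ranger 4.0.0.

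Cells needed over 200 UMIs, of which no more than 30% mitochondrial, and were then integrated with Seurat 5.3.0 in R 4.3.3 (2000 features, 30 dimensions) and clustered at a resolution of 0.2. The 10 genes, 56 pathway genes and Pi16, 67 in all, were left out of the features. Clusters were named from marker lists, so that names are rebuilt and may differ from the study's. The members and lists were chosen with earlier results of these data known. Doublets were kept. As an alternative, the cells with the top Scrublet scores, 0.8% per 1000 cells, were left out, since the automatic threshold called between 0 and 2 cells per library.

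UMIs were summed per class and library and given as CPM, with exact Poisson, Clopper-Pearson and conditional ratio intervals at 95% (scipy 1.17.1). A gene was called at a fold of 2 with at least 100 UMIs in the higher group, and counts under 3 were taken as 3. Cells thinned to 1000 UMIs gave shares of cells. The ratio intervals were tested on simulated data. Named genes were the 10 genes, the 3 largest pathway ratios of 78 w to 3 d in each direction and the 5 genes most correlated with Eln. With 1 library per condition no p-value was computed. Gene positions came from GENCODE M21 (GRCm38), in which 27645 of 27998 identifiers were found. Alternatives varied cell classes, filters, weights, scaling, depth and thresholds.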

Additional observations from a re-analysis of the deposited data

Results flagged for a closer look

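The ratio of 78 w to 3 d pointed in opposite directions in mural and stromal cells for Mfap5 and Emilin1, and these differences were not tested. For Mfap5 the ratio was 0.0907 (0.0867 to 0.0948) in other stromal cells and 0.371 (0.359 to 0.385) in Pi16-positive stromal cells, and 1.49 (1.29 to 1.72) in mural cells. For Emilin1 it was 0.533 (0.515 to 0.552) in other stromal cells and 0.509 (0.457 to 0.565) in Pi16-positive cells, and 1.53 (1.14 to 2.05) in mural cells. The mural levels at 3 d, 126 CPM for Mfap5 and 30.8 CPM for Emilin1, were below the 132 and 36.8 CPM of macrophage-like cells of that library. At 78 w they were 187.5 and 47.1 CPM beside 13.6 and 17.7 CPM. Cells with a Myh11 UMI were 37.7% of mural cells at 3 d and 89.5% at 78 w. In them Mfap5 held 253 of 1343972 UMIs at 3 d, a level above that of macrophage-like cells, and 366 of 1846368 UMIs at 78 w. These levels were near each other, so the rise of Mfap5 over all mural cells was not seen at that size within them. With 1 library per condition no sample could be compared with others of its group.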

How the results depend on the processing

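Counts of genes were recomputed under 146 alternatives and stayed within 1.5 times in 130. At 78 w against 3 d, 2 genes (Fbln1 and Ltbp4) were at least 2-fold higher in place of 1 with a marker gate, with equal weight per cell, with equal weight of stromal clusters, and in stromal clusters 2 and 3 alone, and 0 in cluster 1 alone. At 16 w against 3 w, 2 (Fbln1 and Ltbp4) were higher under median-of-ratios scaling. The Fbn2 call of 78 w against 16 w was lost, to 0 genes, with the gate, equal weight per cell, median-of-ratios scaling, thinning and equal weight of clusters. Against both 3 w and 16 w, 1 gene (Fbln1) was lower in the injured library with equal weight of clusters. In Pi16-positive cells 5 genes were higher in every library after thinning (Eln, Mfap4, Mfap5, Fbln1 and Fbln5) and 0 within cluster 3. In mural cells 2 genes (Mfap4 and Fbln1) were lower in every library with equal weight per cell. The cause was not tested. Except for stromal clusters 1, 2 and 3 alone, the share of all genes under these alternatives is not given. The splits by cluster, the split within cluster 3 and adding the cycling cluster were chosen after seeing the data.

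Of 1440 recomputed ratios of single genes, 1293 lay within 1.5 times of the value given, and 771 of 775 that were at least 2-fold kept their direction. The 4 that reversed were all of Fbn2, on few UMIs or none. They were Pi16-positive against other stromal cells at 78 w after thinning (4.65) and mural against stromal cells at 16 w with the marker gate (1.27), at 16 w after thinning (5.61) and at 3 w after thinning (1.69). After thinning, 0% of these Pi16-positive and mural cells held an Fbn2 UMI. The thinned ratios thus follow from a count of 0 being taken as 3, and show no higher level. No paired analysis was possible because each condition has 1 library. Depth limits Fbn2 outside the 3 d library and every mural value of the injured library, which rests on 107 cells, and all intervals leave out the spread between animals.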

Other observations

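Endothelial-like cells carried Ltbp4, Fbln5 and Eln above the level of macrophage-like cells in all 5 libraries. Ltbp4 stood in them at 227 CPM at 3 d, 531 CPM at 3 w, 639.7 CPM at 16 w, 599 CPM at 78 w and 722 CPM in the injured library, and made up between 49.4% and 66.8% of the sum of the 10 genes from 3 w on. Fbln5 stood at 196, 111, 74.0, 93.5 and 94.5 CPM in the same order, beside 73.4, 25.1, 14.7, 15.3 and 16.4 CPM in macrophage-like cells. Eln in endothelial-like cells was 86.7 CPM at 16 w and 76.4 CPM at 78 w, above the 14.5 and 9.18 CPM of stromal cells of the same libraries.

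Synovial lining-like cells had Fbln5 at 144 CPM at 3 d, 135 CPM at 3 w, 117 CPM at 16 w, 126 CPM at 78 w and 84.1 CPM in the injured library. From 3 w on each of these values was above the 29.7 to 42.6 CPM of stromal cells. The cycling cluster, with 921 of its 989 cells at 3 d, had Eln at 2946 CPM at 3 d, and its cells were left out of the stromal class.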
